A study of Caenorhabditis elegans with 8 samples.

Results

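The FK506-binding proteins are peptidyl-prolyl isomerases, enzymes that speed the cis-trans turn of the bond before a proline in a folding chain, and they take their name from the immunosuppressant they bind. Members of the family work in the cytosol, where some of them assist the chaperone HSP90, and in the endoplasmic reticulum (ER), where proline-rich secretory proteins such as collagens fold. The nematode cuticle is built largely from collagens, which the hypodermis secretes at each moult. In Caenorhabditis elegans the family genes carry the name fkb. All 8 genes listed for this account, fkb-1 to fkb-8, were found by their platform symbol, of 15078 genes with a symbol and values. The family was chosen by the measured ratios of dauers to mix-stage, because most of its genes lay below mix-stage there. The dauer ratios are therefore given as a description, without a test.

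RNA of wild-type N2 Bristol worms was hybridised to 2-colour Agilent arrays. One group was dauer-exit worms, dauers put back on food for 12 h (n = 4), and another was dauer larvae, the arrested and non-feeding stage, purified from liquid culture on day 12 (n = 4). On each array 1 such sample was hybridised beside RNA of a common mix-stage pool, from worms of all stages grown on plates to day 5, which serves as 1 control sample. Of the 4 arrays of a stage, 2 had the worms' RNA labelled with Cy5 and the pool with Cy3, and 2 the reverse. The first are called Cy5 arrays below and the others Cy3 arrays. By the study's methods the replicates came from parallel cultures and the purified dauers also started the dauer-exit plates. Mix-stage worms were not grown in liquid, so stage and culture cannot be told apart against that pool. By the same methods the dauer-exit worms spent their 12 h on plates. Stage and culture therefore cannot be told apart between dauer-exit and dauers either.

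Every ratio below is a log2 ratio of own RNA over the mix-stage pool, turned by the dyes in the labels, so that a value of -1 is a halving relative to the pool. Equal amounts of total RNA were labelled, and the ratios therefore say nothing of the amount per worm. In whole worms fewer cells of a type and less RNA per cell cannot be told apart. The small heat shock gene hsp-12.6, known as dauer-enriched, averaged -0.50 in dauer-exit and 4.798 in dauers. Of the 4 measured dauer-enriched genes, 3 averaged below 0 in dauer-exit (not col-183, at 0.65) and 3 above 0 in dauers (not sod-3, at -0.067). Over these genes the array medians were -1.225 to -0.51 in dauer-exit and 0.67 to 2.62 in dauers. Yolk genes (6 of 6 measured) averaged below 0 in both stages, as 4 of 5 sperm genes of the msp family did. Of 7 oocyte and germ line genes, 5 averaged below 0 in dauer-exit and 6 in dauers. The pool thus held more of most of these transcripts than either larval sample. Across all genes the 8 arrays had medians between -0.15 and -0.029. The least alike pair was dauer-exit replicate 1 and dauer replicate 3, with a Pearson r of 0.11 across genes.

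The family ran as follows. In dauers all 8 genes had a mean below 0, with a median over the family of -1.34, against -0.047 over all genes. At 12 h of exit the family median was 0.070, against -0.078 over all genes. The exit mean was above the dauer mean in all 8 genes, by 3.28 for fkb-5 at one end and by 0.072 for fkb-1 at the other. Low dauer ratios, for which the family was chosen, favour such a difference. The genes fkb-3, fkb-5 and fkb-4 had the lowest dauer ratios, and 3 genes, fkb-3, fkb-5 and fkb-7, had stages that did not overlap, beside 9.55% of all genes.

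**Figure D1:**
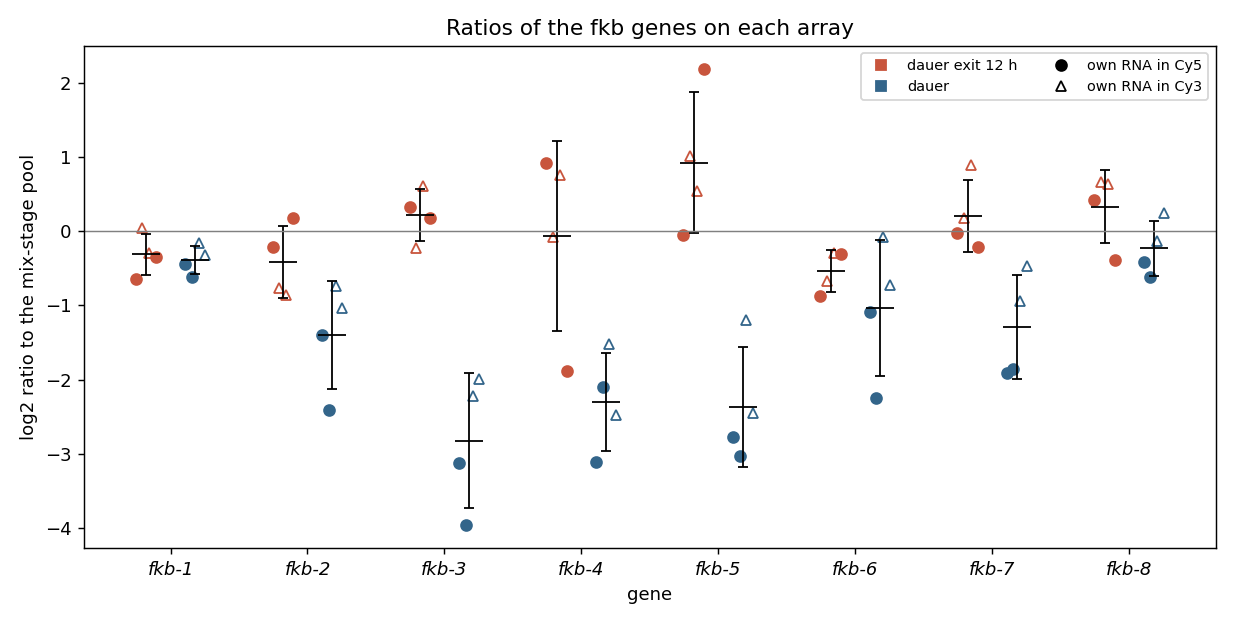
Log2 ratio to the mix-stage pool (vertical axis) of each fkb gene on each of the 8 arrays, with dauer-exit 12 h on the left and dauer on the right of each gene, filled circles for Cy5 arrays and open triangles for Cy3 arrays. Black bars are means with SD (n = 4). The dauer points of fkb-3, fkb-4 and fkb-5 all lie at or below -1.20, while exit means of the 8 genes lie between -0.53 and 0.92.

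The genes fkb-3, fkb-4 and fkb-5 encode isomerases of the secretory pathway that are expressed in the hypodermis. Whether other members share that pathway was not compared with the ratios here. No link between pathway and ratio can therefore be read from these 3 genes. The ratio of fkb-3 was 0.32, -0.23, 0.61 and 0.18 on dauer-exit arrays 1 to 4, against -3.12, -3.96, -2.21 and -1.99 on dauer arrays 1 to 4. The groups did not overlap, since the lowest exit array lay far above the highest dauer array. The means were 0.22 ± 0.35 in dauer-exit and -2.82 ± 0.91 in dauers (SD, n = 4 each), a difference of 3.04 (model SE 0.42) or 8.22-fold.

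For fkb-5 the ratios were -0.057, 1.02, 0.54 and 2.19 in dauer-exit and -2.77, -3.03, -1.20 and -2.45 in dauers. Again no exit array reached down to a dauer array. The difference was 3.28 (SE 0.53), or 9.74-fold, and dauer-exit replicate 4 was the highest of the 8 arrays. Its 2 probes, designed to different transcript accessions, both separated the stages, with differences of 4.05 and 2.52. The value of 2.19 on dauer-exit replicate 4 was the mean of 3.45 and 0.92 on these probes, so the probes parted most on that array.

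The ratios of fkb-4 were 0.92, -0.072, 0.75 and -1.88 in dauer-exit, against -3.11, -2.09, -1.53 and -2.47 in dauers. Dauer-exit replicate 4 lay inside the dauer range, on the same array where fkb-5 was highest, and the other 3 exit arrays were above all dauer arrays. The difference of 2.23 (SE 0.60) was 2.83 without that array. One probe measured fkb-4, as was the case for fkb-3 and fkb-7, so these 3 genes have no second probe to set beside it.

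The ratios of fkb-7 were -0.020, 0.18, 0.89 and -0.22 in dauer-exit and -1.91, -1.85, -0.94 and -0.47 in dauers. The stages did not overlap, though the gap between -0.22 in exit and -0.47 in dauers was narrow. The difference was 1.499 (SE 0.38).

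The cytosolic FKBP12-type gene is fkb-2, whose mammalian counterpart mediates the action of FK506 and rapamycin. Its ratios were -0.21, -0.76, -0.85 and 0.18 in dauer-exit and -1.40, -2.41, -0.74 and -1.03 in dauers. The groups overlapped, with 2 exit arrays, both Cy3 arrays, below the highest dauer array. The gene fkb-6 encodes a protein with tetratricopeptide repeats like the mammalian partners of HSP90, FKBP51 and FKBP52. It had ratios of -0.87, -0.67, -0.29 and -0.30 in dauer-exit, all 4 below 0, and of -1.08, -2.25, -0.080 and -0.72 in dauers. The exit range of fkb-6 lay wholly inside its dauer range. The differences between the stages were 0.98 (SE 0.39) for fkb-2 and 0.50 (SE 0.42) for fkb-6.

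By their gene means the last 2 genes stayed near the pool in both stages. One probe of fkb-1 did not, at -0.93 in dauer-exit and -1.28 in dauers. The ratios of fkb-1 were -0.64, 0.037, -0.30 and -0.35 in dauer-exit and -0.44, -0.61, -0.16 and -0.32 in dauers, a spread of 0.67 over all 8 arrays, the narrowest of the family. Those of fkb-8 were 0.42, 0.66, 0.64 and -0.38 in dauer-exit, against -0.41, -0.62, -0.13 and 0.24 in dauers. Both genes overlapped between the stages, with differences of 0.072 (SE 0.22) and 0.56 (SE 0.30). In the gene table of assembly WBcel235 fkb-8 is the coding gene next to fkb-2, and these neighbours had dauer means of -0.23 and -1.39.

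The comparison of dauer-exit with mix-stage asks where the recovering worms stand relative to a growing population. Its ratios had no part in the choice of the genes, though the pool is shared with the dauer arrays. The dauer arrays also enter the common estimate of spread, and through it the intervals and p-values. Leaving out single dauer arrays kept the exit ratio of fkb-5 and moved its limma adjusted p between 0.108 and 0.248. Of the 8 genes 0 were called by limma at a Benjamini-Hochberg adjusted p of 0.05 (adjusted p between 0.191 and 0.972), beside 9.52% of all genes called in either direction. At an unadjusted p under 0.05 there was 1, fkb-5, with a ratio of 0.92 (95% interval 0.079 to 1.76, adjusted p = 0.191). It was above 0 on 3 of 4 arrays, and its 2 probes gave 1.46 and 0.39. Without dauer-exit replicate 4 the ratio was 0.4999 (adjusted p = 0.561), and it was called (1.25, adjusted p = 0.0428) when the 2 least alike arrays were left out, an alternative chosen after seeing the data.

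The width of the other intervals limits what can be said of the rest. Each interval rests on a spread estimated over all 8 arrays, so the dauer arrays enter its width. For fkb-6 the SD was 0.28 in dauer-exit and 0.91 in dauers. Its limma adjusted p in dauer-exit against mix-stage was 0.378, and 0.143 without dauer replicate 2. For fkb-3 the interval was -0.46 to 0.90, for fkb-7 -0.40 to 0.82 and for fkb-8 -0.14 to 0.81. The one for fkb-4 was the widest, from -1.03 to 0.89, and a halving below the pool lay within it. For fkb-1, fkb-2 and fkb-6, with ratios of -0.31, -0.41 and -0.53, the intervals were -0.66 to 0.033, -1.03 to 0.21 and -1.20 to 0.13. A ratio of -1 was thus within the intervals of fkb-2, fkb-4 and fkb-6, and outside the other 5.

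In the other comparisons the dauer ratios that chose the genes take part, so the following counts are descriptions. The ratios to mix-stage were below 0 on all 4 dauer arrays in 7 of 8 genes, beside 21.6% of all genes. Between the stages 2 of 8, fkb-3 and fkb-5, were past the same threshold as higher in dauer-exit and 0 as lower, beside 1.88% and 2.13% of all genes (4.01% in either direction). In the 3 of 8 without overlap every exit ratio was above every dauer ratio, beside 4.18% of all genes.

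In order of the dauer mean the genes ran fkb-3 (-2.82), fkb-5 (-2.36), fkb-4 (-2.30), fkb-2 (-1.39), fkb-7 (-1.29), fkb-6 (-1.03), fkb-1 (-0.38) and fkb-8 (-0.23). One step in this order was larger than its spread over the 4 arrays, the step between fkb-4 and fkb-2 of 0.905 ± 0.903 (SD, n = 4), and that only just. The largest step after it, between fkb-6 and fkb-1, was 0.65 ± 0.72. In dauer-exit no step between neighbours exceeded its SD, and the order there, with fkb-6 lowest and fkb-5 highest, is not settled by 4 arrays.

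The dauer ratios of the family also differed between Cy5 and Cy3 arrays. The dauer mean over Cy5 arrays was below that over Cy3 arrays in 8 of 8 genes, beside 62.8% of all genes. That count is a description, since the dauer ratios chose the genes. In dauer-exit the Cy5 mean was above the Cy3 mean for fkb-2 (-0.015 against -0.81), fkb-3 (0.25 against 0.19) and fkb-5 (1.065 against 0.78). For the other genes it was below. Dauer replicate 2, a Cy5 array, held the lowest dauer ratio of 6 genes, and dauer replicate 3, a Cy3 array, the highest of 5. Over the family the median on dauer arrays 1 to 4 was -1.65, -2.17, -0.84 and -0.88. The Cy5 and Cy3 arrays carried different cultures, so dye and culture cannot be told apart.

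Within each dye orientation the stages could still be compared over 2 arrays each. The difference between dauer-exit and dauer was 3.79 on Cy5 and 2.29 on Cy3 arrays for fkb-3, 3.96 and 2.60 for fkb-5, 2.12 and 2.34 for fkb-4, and 1.76 and 1.24 for fkb-7. For fkb-1 it was 0.033 and 0.11, and for fkb-8 it was 0.53 and 0.59. For fkb-2 the difference was 1.89 on Cy5 and 0.077 on Cy3 arrays, and for fkb-6 it was 1.08 and -0.084. The difference was above 0 in both orientations in 7 of 8 genes, all but fkb-6. That count is a description, since the low dauer ratios that chose the genes favour it. Dauer replicate 2 weighed on fkb-2 and fkb-6, whose differences were 0.64 and 0.093 without that array.

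**Figure D2:**
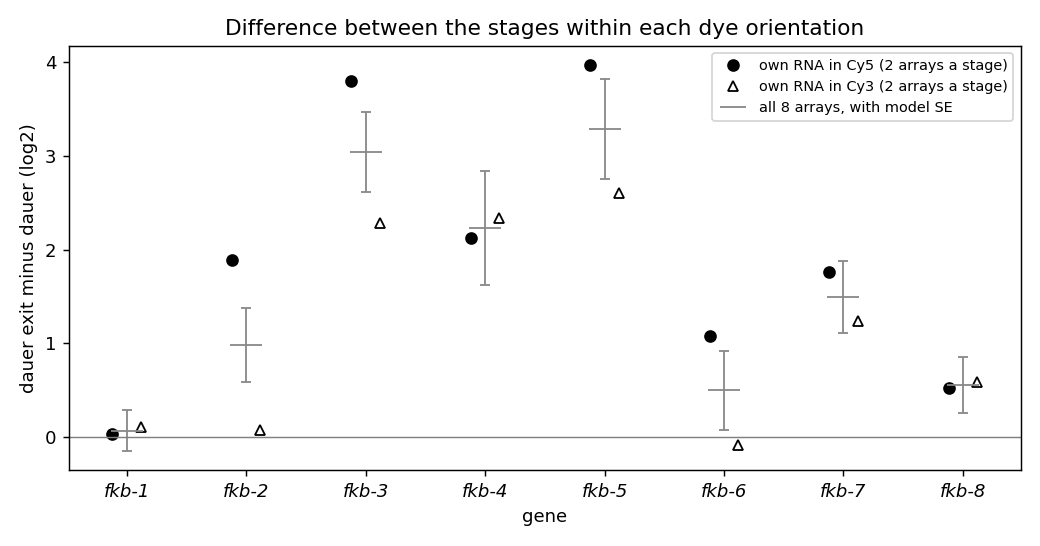
Dauer-exit minus dauer (vertical axis, log2) of each fkb gene over the Cy5 arrays (filled circles, 2 arrays a stage), over the Cy3 arrays (open triangles, 2 arrays a stage) and over all 8 arrays (grey, with model SE). For fkb-3, fkb-4, fkb-5 and fkb-7 both orientations lie at or above 1.24, and for fkb-2 and fkb-6 the Cy3 value is near 0.

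Probe by probe the family was measured 17 times. As a description, since the dauer ratios chose the genes, the dauer mean was below 0 for 16 of 17 probes. The exit mean was above the dauer mean for 15 of 17. The exceptions were all probes of fkb-1. Its 4 probes had dauer means of -1.28, -0.27, -0.069 and 0.080, against exit means of -0.93, -0.35, -0.32 and 0.36 in the same probe order. One probe of fkb-1 thus lay well below the pool in both stages while the others lay near it, and the gene's mean joins probes that disagree. The 3 probes of fkb-6 were close, with dauer means between -1.12 and -0.97. For fkb-2 the 3 dauer means were -1.82, -1.23 and -1.14, and the stage differences 1.48, 0.36 and 1.10.

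Likeness over the 8 arrays differed between pairs. The correlation of fkb-3 was 0.93 with fkb-7, 0.89 with fkb-5, 0.82 with fkb-2 and 0.77 with fkb-4 (Pearson r over 8 arrays that share the pool, given as a description). That of fkb-4 was lower with fkb-5 (0.59), fkb-2 (0.41) and fkb-6 (0.30), and dauer-exit replicate 4 held the lowest exit ratio of fkb-4 and the highest of fkb-5. The gene fkb-8, of narrow range, had 0.85 with fkb-7 and 0.78 with fkb-4. The correlations of fkb-1 with the others were between 0.10 and 0.60. Among 7231 other genes with a standard symbol, those most like fkb-3 were emb-9 (r = 0.99), a type IV collagen gene of basement membranes, kat-1 (0.99), a thiolase gene of fatty acid oxidation, and dpy-11 (0.99), a thioredoxin-like gene of the hypodermis. The genes most like fkb-5 were fib-1 (0.98), which encodes the nucleolar methyltransferase fibrillarin, tram-1 (0.98), a gene of protein entry into the ER, and the lipocalin-related gene lpr-4 (0.97). Their dauer means were between -3.82 and -1.41 and their exit means between -0.57 and 0.74.

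Genes that act in the same processes were read from lists of symbols. The other prolyl isomerases, mostly cyclophilins, numbered 16 measured genes. In dauer-exit against mix-stage 4 of the 16 were called lower and 0 higher by limma, beside 9.07% and 0.458% of all genes, and the list median was -0.40. In dauers the list median was -0.66. The cyclophilin gene cyn-2 had ratios of -1.13, -1.33, -0.98 and -2.03 in dauer-exit and of -1.66, -1.28, -0.49 and -0.96 in dauers, below 0 on every array (exit against mix-stage adjusted p = 0.00506). The genes cyn-7 and cyn-3 were lower in exit too (-1.06, SE 0.24, adjusted p = 0.0231, and -1.03, SE 0.25, adjusted p = 0.0322). Their dauer means were -2.065 and -1.507. Leaving out single exit arrays brought the 4 calls to 2, 1, 2 and 1 for exit replicates 1 to 4. The call of cyn-2 was kept in each of these fits, that of cyn-7 was lost without any 1 of the exit arrays (adjusted p between 0.0630 and 0.119), and that of cyn-3 without exit replicate 2, 3 or 4. Against dauers 0 of the 16 were called, and the list median of exit minus dauer was 0.32, beside -0.034 over all genes. The fkb median of 1.24 contains the dauer ratios that chose the family, so the 2 medians are not a like comparison.

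Of ER folding and collagen hydroxylation 12 genes were measured. In dauer-exit against mix-stage 2 rose and 0 fell, beside 0.458% and 9.07% of all genes. Both are genes for alpha subunits of prolyl 4-hydroxylase, the enzyme that makes the hydroxyproline of collagens. The ratios of dpy-18 were 1.49, 0.54, 0.99 and 1.99 in dauer-exit and -2.55, -1.89, -1.09 and -1.77 in dauers. Those of phy-2 were 1.34, 1.55, 1.64 and 0.42 in dauer-exit and -3.06, -1.51, -1.997 and -1.89 in dauers. Both genes were above the pool on every exit array (adjusted p = 0.0195 and 0.0208) and below it on every dauer array. The call of dpy-18 was lost without dauer-exit replicate 1, 3 or 4 (limma adjusted p of 0.0824, 0.0501 and 0.0950), and that of phy-2 without dauer-exit replicate 1, 2 or 3 (0.0794, 0.112 and 0.0907), with ratios between 1.007 and 1.511 in all fits without 1 exit array.

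Between the stages 5 of the 12 were called higher in dauer-exit by limma and 0 lower, beside 1.88% of all genes called higher. They were phy-2 (3.35, SE 0.39, adjusted p = 0.00317), dpy-18 (3.08, SE 0.39, adjusted p = 0.00399), the protein disulfide isomerase genes pdi-2 (2.59, SE 0.33, adjusted p = 0.00418) and pdi-1 (3.36, SE 0.64, adjusted p = 0.0221), and hsp-3 (1.996, SE 0.42, adjusted p = 0.0305), a gene for the ER chaperone BiP. The last 3, and the uncalled genes given below, were named after their values were seen. The call of pdi-1 was lost without dauer-exit replicate 4, dauer replicate 1 or dauer replicate 4, and that of hsp-3 in 6 of the 8 fits without 1 array (adjusted p up to 0.0921), all but those without dauer-exit replicate 2 or dauer replicate 3. The calcium-binding chaperone genes crt-1 and cnx-1 were not called, with exit minus dauer values of -0.40 (SE 0.47) and 0.092 (SE 0.68). Nor were pdi-3 (0.52, SE 0.41), phy-3 (0.093, SE 0.33) and hsp-4 (0.38, SE 0.66), which share a symbol stem with called genes.

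**Figure D3:**
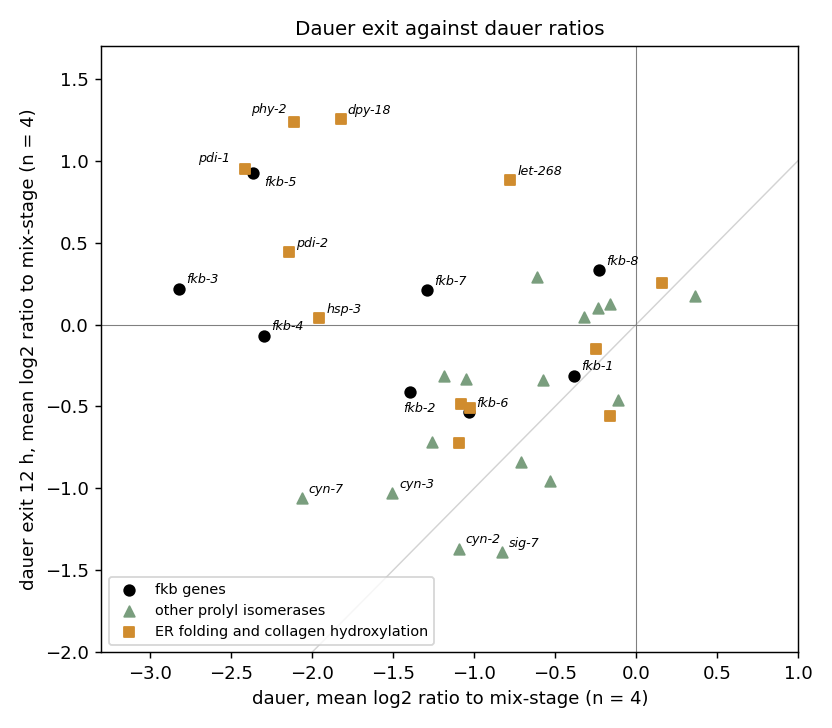
Mean log2 ratio to mix-stage in dauer-exit (vertical axis) against that in dauers (horizontal axis) for the fkb genes (circles), the other prolyl isomerases (triangles) and the ER folding and collagen hydroxylation genes (squares), n = 4 arrays a stage. The grey diagonal marks equal ratios in both stages. The genes fkb-3, fkb-4 and fkb-5 stand at the left with phy-2, dpy-18, pdi-1, pdi-2, hsp-3 and the cyclophilin gene cyn-7 (dauer mean -2.065). At the lower edge 4 cyclophilin-type genes, cyn-2, cyn-3, cyn-7 and sig-7, are below -1 in dauer-exit, of which sig-7 was not called (limma adjusted p = 0.0511). The dauer means of cyn-3, cyn-2 and sig-7 were -1.507, -1.095 and -0.83.

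The last lists held partners known for the cytosolic members in mammals. Of the HSP90 co-chaperones 3 genes were measured, cdc-37, pph-5 and chn-1, and 1 was called in dauer-exit against mix-stage, beside 9.52% of all genes. The ubiquitin ligase gene chn-1 had ratios of -0.91, -1.15, -0.85 and -1.58 in dauer-exit, lower than mix-stage by limma (adjusted p = 0.0249), against -1.01, -1.02, 0.54 and -0.44 in dauers. Its call was lost without any 1 of the exit arrays (adjusted p between 0.0578 and 0.118). Of 6 measured genes on the list of FKBP12 targets, which holds the TOR kinase, calcineurin and calcium release channels, 0 were called in dauer-exit against mix-stage. The 1 of smallest p was cnb-1, the regulatory calcineurin subunit (-1.03, SE 0.36, adjusted p = 0.128), and it was called with a dye term in the model (adjusted p = 0.0138). List medians of exit minus dauer were 0.10 and 0.087.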

How the data were processed

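Per the study's methods, the authors read scanned spots with GenePix, applied the normexp background correction, ran a loess in limma in which probes and spike-in controls had different weights (version not given in the sources used here), and deposited log2 ratios of Cy5 over Cy3. Here the sign was turned by the dyes in the labels to worm RNA over pool RNA. As deposited, columns of opposite orientation correlated at -0.699 to -0.046 and those of one orientation at 0.224 to 0.743, and column medians were -0.087 to 0.135. Of 45220 features 44123 had values, and 16860 of those had no symbol and were left out. Of 27263 probes with 1 symbol, 19293 matched an accession in the WBcel235 gene table. Probes of a gene were averaged.

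All 8 arrays and 15078 genes entered a single fit with a term for each stage (lmFit and eBayes, limma 3.58.1, R 4.3.3), with Benjamini-Hochberg adjustment over all genes and a threshold of 0.05. The script was tested on simulated data. Ratios against mix-stage leave out the spread of that pool, and p-values measure the spread between parallel cultures. The precision is set by 4 arrays a stage, with a median SE over genes of 0.22 against mix-stage and 0.31 between the stages.

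The genes and lists were chosen with earlier results of these data known. Named were all fkb genes; per list up to 3 genes called in dauer-exit against mix-stage with the largest change and all exit arrays on one side, else the 1 of smallest p; and for the 2 fkb genes of widest range the 3 most correlated genes. Alternatives were a common array scale, median centring, a dye term, each dye orientation, each array left out, a replicate block, the median of probes, single probes, a robust prior and platform symbols. Spot intensities were not used here, and a dim gene may therefore look like one near the pool. Neither slide nor scan date was used as a batch here.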

Additional observations from a re-analysis of the deposited data

Results flagged for a closer look

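The effect against mix-stage differed between dauer-exit and dauers past the threshold of limma, by the test of the difference itself, for the following named genes. Dauer-exit minus dauer on the log2 scale was 3.04 for fkb-3 and 3.28 for fkb-5, which is a description, since their dauer ratios were among those that chose the family. It was 3.08 for dpy-18, 3.35 for phy-2, 3.36 for pdi-1, 2.59 for pdi-2 and 1.996 for hsp-3 of the ER list. For the stage marker hsp-12.6 it was -5.30. The 6 genes picked for their likeness to fkb-3 or fkb-5 over these arrays had 2.67 (emb-9), 1.75 (kat-1), 1.98 (dpy-11), 2.67 (fib-1), 2.15 (tram-1) and 4.47 (lpr-4), values that follow from how they were picked.

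A single array stood apart from the other 3 of its stage by Dixon's criterion, which chance meets in about 1 in 20 groups, for sig-7 (-2.44 on dauer replicate 2), cnx-1 (2.31 on dauer-exit replicate 4) and tram-1 (2.10 on dauer-exit replicate 4).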

How the results depend on the processing

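Between the stages 2 fkb genes were past the threshold, 2 to 3 with single arrays left out, and 0 within the Cy5 and 0 within the Cy3 arrays alone. These counts are descriptions, since the dauer ratios that chose the family take part. In dauer-exit against mix-stage 0 passed, also with any single array left out (0 to 0), and 1 with dauer-exit replicate 1 and dauer replicate 3 both left out, an alternative chosen after seeing the data.

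Over all genes, the 1436 calls in dauer-exit against mix-stage became 621 within the Cy5 and 674 within the Cy3 arrays, and 695 (without dauer-exit replicate 2) to 1861 with single arrays left out. For dauers against mix-stage 2796 became 1796 within Cy3, and 2052 to 3011 with single arrays left out. Between the stages 604 became 0 within Cy5 and 291 within Cy3, and 287 to 742 with single arrays left out. The cause was not tested, beyond the fewer arrays in each of these fits.

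Against mix-stage in dauer-exit the 4 calls of the other prolyl isomerases became 0 within Cy5, 2 within Cy3, 2 with both named arrays left out and 1 to 6 with single arrays left out. The 2 calls of the ER list became 1 within Cy3 and 0 to 2 with single arrays left out. The 1 call of the co-chaperones became 0 within Cy5 and 0 within Cy3, and 0 to 1 with single arrays left out. The FKBP12 targets had 0 calls, 0 to 0 with single arrays left out, and 1 with a dye term.

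Uncalled exit ratios changed sign for fkb-4 (main value -0.069; 0.032 after median centring, 0.34 within Cy3 and -0.40 to 0.53 with single arrays left out, the highest without dauer-exit replicate 4), fkb-7 (main value 0.21; -0.12 within Cy5 and -0.019 to 0.35 with single arrays left out, the lowest without dauer-exit replicate 3) and 1 probe of fkb-1 (0.36). Exit minus dauer, uncalled, changed sign for crt-1 (0.63 within Cy5, and -0.87 to -0.088 with single arrays left out) and cnx-1 (-1.06 within Cy3, and -0.59 to 0.38 with single arrays left out). Deviations of same-numbered arrays from their stage means correlated at r of 0.0701, -0.0506, 0.235 and -0.147 for replicates 1 to 4. Replicates 1 and 3 had the same dye in both stages, and replicates 2 and 4 opposite dyes. These values therefore cannot decide whether same-numbered cultures were paired. With the replicate number as a block 0 fkb genes were called in dauer-exit against mix-stage and 2 between the stages. Over all genes 1393 and 489 were called, and 2643 in dauers against mix-stage. The count of fkb genes between the stages is a description, since the dauer ratios that chose them take part. Of the named list genes the block ended the calls of cyn-3 in dauer-exit against mix-stage (adjusted p = 0.0568) and of hsp-3 between the stages (adjusted p = 0.0694). With 2 arrays a stage in each dye, effects of a dye cannot be told apart from those of the cultures.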
